A study of Homo sapiens with 13 samples.

Results

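The genes described here are developmental transcription factors of 10 families whose genes lie outside the HOX clusters: the homeobox families NKX, LHX, PAX, sine oculis, DLX, IRX and PITX, the T-box family (TBX), the SOX family and the GATA family. They were picked out by family name in the array's own gene symbol column. On the array, 109 of 42405 probes carried such a symbol, and they stood for 90 of the 21789 gene symbols. Signal passed the filter on dim probes for 94 of the 109 probes and 79 of the 90 genes, and these 79 were tested among 28931 features. GATA1, IRX1, IRX2, PAX5, SIX6, SOX1, SOX11, SOX18, TBX4, TBX20 and TBX22 did not pass. Of the 79, 53 (67.1%) were well above background in both RNAs on every array, against 54.8% of all tested features.

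All RNA came from HEK293T, an established cell line from human embryonic kidney with the large T antigen of SV40. In the first comparison, cells had been given UNC0638, a compound that blocks the related histone lysine methyltransferases G9a and GLP (encoded by EHMT2 and EHMT1), at 1 µM for 48 h, and the control was DMSO. In the second and the third, cells carried an siRNA to WIZ, whose zinc finger product is a partner of the G9a and GLP complex, or an siRNA to G9a, each for 72 h and against a control siRNA. Each of the 13 arrays held a treated RNA and its control RNA, 1 in Cy3 and 1 in Cy5. UNC0638 had 5 replicates: numbers 1 and 2 were run with the dyes swapped, and 3 to 5 had treated RNA in Cy5 alone. WIZ siRNA had 2, each in both orientations, and G9a siRNA had 2, with treated RNA in Cy5 alone. The labels name the replicates as biological, give no more on how the cultures were separated, and leave it unstated if WIZ and G9a siRNA had control RNA in common. An array of this kind measures RNA from the whole culture, so fewer cells with a transcript and less transcript per cell cannot be told apart.

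The median spot brightness was 146 to 308 in Cy3 and 120 to 468 in Cy5, and in each channel 47.8% to 92.7% of probes exceeded background. The arrays fell into 2 sets by their Cy3 background: set 1 held UNC0638 replicates 1 and 2 and WIZ siRNA, and set 2 held UNC0638 replicates 3 to 5 and G9a siRNA. The direction of each ratio was taken from the dye labels and checked with the targeted genes. WIZ had a log2 ratio of -2.12 on WIZ siRNA arrays (range -2.33 to -1.93), and EHMT2 had -1.66 on G9a siRNA arrays (-1.67 and -1.65). WIZ also read -0.742 in UNC0638 replicate 5, where the other UNC0638 replicates ran from -0.124 to 0.14. The cause of this was not tested. Over all features, UNC0638 replicate 4 correlated with the G9a siRNA replicates at r of 0.5 and 0.499. UNC0638 replicate 3 stood apart from the other UNC0638 replicates, with which it correlated over all features at r of 0.135 to 0.663, and close to the G9a siRNA replicates (0.876 and 0.843). EHMT2 read -0.36 there, within the -0.48 to 0.12 of the other UNC0638 replicates and well above the G9a siRNA arrays; that its RNA is as labelled was not tested beyond this value, and the calls with UNC0638 are given with and without it. All 8 genes listed as known from this cell line, LHX1 and PAX2 among them, were above background in the control RNA of all 13 arrays. Of 17 markers of fibroblasts, leukocytes, endothelium, hepatocytes and keratinocytes, 8 were above background on 0 of the 5 control RNAs of set 2. Among the 16 of these that were tested, 3 were called with UNC0638 (COL3A1, LUM and VWF), 0 with WIZ siRNA (1 at an unadjusted limma p below 0.05) and 4 with G9a siRNA (LUM, CD14, CDH5 and APOA1); their part in the results below was not tested.

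These factors bind DNA and set the identity of cells in the embryo. The homeobox families encode homeodomain or paired-domain proteins that pattern the neural tube, limbs, kidney, heart and pituitary; T-box proteins act in mesoderm, heart and limbs; SOX proteins bind the minor groove of DNA and act in stem cells, nerve and gonad; GATA proteins bind GATA motifs in blood, heart and endoderm. In differentiated or transformed cells many of these genes are silent or weakly expressed and lie in chromatin marked by methylated histone H3, by polycomb at lysine 27 or by G9a and GLP at lysine 9. HEK293T cells express several of them, such as the early kidney factors LHX1 and PAX2.

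Promoter sequence is shown for the genes of this set that passed the test with UNC0638 or WIZ siRNA and have an entry in the RefSeq promoter table (GRCh38.p14), which are 3 of 8. The window is the 250 bases before the annotated start, on the gene's own strand. Capitals mark each CG dinucleotide, the pair at which vertebrate DNA is methylated. TBX18 is on the minus strand at chr6:84764599-84764848, PAX7 on the plus strand at chr1:18630596-18630845, and IRX4 on the minus strand at chr5:1887180-1887429, the most upstream of its 3 listed starts.
TBX18: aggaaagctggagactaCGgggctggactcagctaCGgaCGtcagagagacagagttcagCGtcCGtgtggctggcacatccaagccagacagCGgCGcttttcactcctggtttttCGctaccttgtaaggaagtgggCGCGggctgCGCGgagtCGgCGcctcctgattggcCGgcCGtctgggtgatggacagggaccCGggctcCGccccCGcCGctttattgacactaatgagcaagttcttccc
PAX7: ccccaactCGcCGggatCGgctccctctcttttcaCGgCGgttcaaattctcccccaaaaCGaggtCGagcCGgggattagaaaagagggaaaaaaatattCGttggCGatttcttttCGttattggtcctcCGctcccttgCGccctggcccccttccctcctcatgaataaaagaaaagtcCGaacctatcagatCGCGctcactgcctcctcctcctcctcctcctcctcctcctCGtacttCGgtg
IRX4: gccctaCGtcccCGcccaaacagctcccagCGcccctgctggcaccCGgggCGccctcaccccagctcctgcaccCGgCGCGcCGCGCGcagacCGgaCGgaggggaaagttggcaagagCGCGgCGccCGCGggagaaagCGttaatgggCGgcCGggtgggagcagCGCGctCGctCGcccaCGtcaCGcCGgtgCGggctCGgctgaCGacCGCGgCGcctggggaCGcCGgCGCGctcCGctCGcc
The TBX18 window holds 20 CG pairs, the PAX7 window 18 and the IRX4 window 40, where the median over the table's 35116 promoters is 11. At least 20 pairs are found in 32.4% of those promoters, at least 18 in 36.8% and at least 40 in 2.16%. The letters TATAAA, searched on both strands, are in none of these 3 windows and in 10.7% of all promoters of this length. The windows at the other two IRX4 starts hold 39 and 30 pairs, which 2.65% and 12.4% of promoters reach. TBX18 and PAX7 are therefore ordinary in CG content among promoters, and how far IRX4 lies towards the high end depends on the start.

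With UNC0638, 7 of the 79 tested factors fell and 0 rose: NKX6-2, SOX8, LHX1, IRX4, DLX5, TBX18 and GATA5. They came from 7 of the 10 families, 1 gene in each. A call here is an adjusted p below 0.05 from limma's moderated test of the mean log2 ratio, Benjamini-Hochberg adjusted over all 28931 features. The 7 made up 8.86% of the tested factors, against 3.65% of all features called in either direction, 1.75% called higher and 1.9% called lower. At an unadjusted p below 0.05, limma gave 26 of the 79, all 26 lower and 0 higher. The share of all features at this unadjusted threshold was not counted, here or for the other treatments. The count of calls was 3 without UNC0638 replicate 4 and 4 without UNC0638 replicate 1 or either WIZ siRNA replicate. Without UNC0638 replicate 3 it was again 7, of which 4 were the same genes: NKX6-2 (-0.96), SOX8 (-0.65), IRX4 (-0.48) and DLX5 (-0.36) kept their calls, while LHX1 (-0.46, limma adjusted p = 0.051), GATA5 (-0.25, 0.0679) and TBX18 (-0.27, 0.0806) lost theirs.

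NKX6-2, a homeobox factor of neural tube and oligodendrocyte development, fell the most of the 7. Its log2 ratio, UNC0638 over DMSO, was -0.95, -0.80, -1.66, -1.08 and -0.996 in replicates 1 to 5. Every one of the 7 arrays was below 0, from -1.66 to -0.69, and replicate 3 was the lowest. The mean was -1.10 (SE 0.104, n = 5), a level 0.468 times that of the control, with a limma adjusted p of 0.000646. Within replicates 1 and 2 both dye orientations gave a drop, of -0.86 and -0.69 with treated RNA in Cy3 and -1.04 and -0.91 with treated RNA in Cy5. NKX6-2 passed limma's test in all 22 alternatives run, with means from -1.31 to -0.87.

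SOX8, a SOX factor of neural crest, glia and testis, fell by 0.62 on the log2 scale. Its replicates read -0.58, -0.44, -0.53, -0.52 and -1.05. Replicate 5 was lower than the other 4, which lay close together, and all 7 arrays were below 0. The fall had an SE of 0.0816 (n = 5) and a limma adjusted p of 0.00331. The probe lies on the plus strand at chr16:1036893-1036952 (build 37.1, as the files give it) and has a GC content of 45%.

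IRX4, an Iroquois factor known from the ventricle of the heart, had little spread. Its log2 ratios were -0.49, -0.34, -0.35, -0.45 and -0.64, and all 7 arrays were below 0. The mean was -0.45 (SE 0.0577, n = 5) with a limma adjusted p of 0.00284. Its probe is spotted 10 times on each array, more often than the other called factors' probes. This is the gene whose promoter window above holds 40 CG pairs.

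LHX1, a LIM-homeobox factor needed for the early kidney tubule and the head organizer, differed more between replicates. The log2 ratios were -0.61, -0.08, -0.83, -0.81 and -0.32. Replicate 2 was near 0, and 1 of its arrays read 0.01; the other 6 arrays were negative. The mean was -0.53 (SE 0.104, n = 5; limma adjusted p = 0.0236). LHX1 kept its call in 12 of 22 alternatives, and with the authors' own log2 ratios its adjusted p was 0.0724.

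DLX5, a Distal-less factor of bone, ear and branchial arches, fell in each replicate. It read -0.28, -0.27, -0.73, -0.49 and -0.38. The replicates of set 1 were the smallest changes and replicate 3 the largest. The mean was -0.43 (SE 0.0732, n = 5; limma adjusted p = 0.0116). Its neighbour on chromosome 7, DLX6, had a mean of 0.12 with UNC0638 and did not pass the test, so the pair had opposite signs.

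TBX18, a T-box factor of the ureter, heart and somites, and GATA5, a zinc finger factor of heart and endoderm, showed the smallest called changes. TBX18 read -0.16, -0.19, -0.33, -0.18 and -0.53, with a mean of -0.28 (SE 0.0602, n = 5; limma adjusted p = 0.0364). GATA5 read -0.34, -0.05, -0.33, -0.33 and -0.28, with a mean of -0.27 (SE 0.0541, n = 5; limma adjusted p = 0.0282). All 7 arrays were below 0 for both genes. Each call was close to the threshold: TBX18 kept it in 7 of 23 alternatives and GATA5 in 11 of 23.

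**Figure D1:**
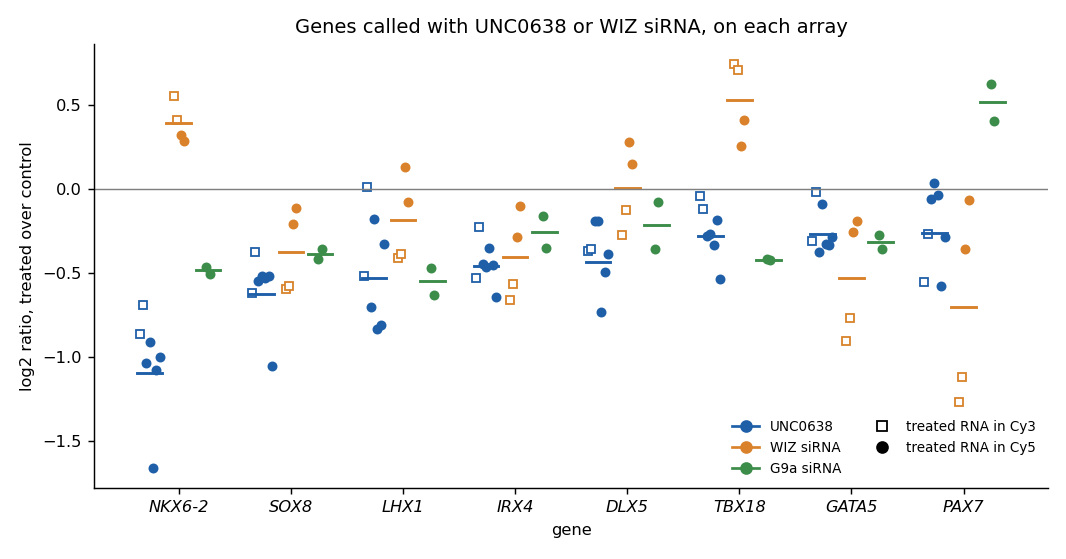
Log2 ratio of treated over control RNA (y axis) for the 8 factors called with UNC0638 or WIZ siRNA (x axis). Each point is 1 array, open squares have treated RNA in Cy3 and filled circles in Cy5, and short lines are the means over replicates. All 7 UNC0638 arrays lie below 0 for NKX6-2, from -1.66 to -0.69, while the 4 WIZ siRNA arrays lie above 0, from 0.29 to 0.56.

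Beyond the called genes, most tested factors leaned to lower values with UNC0638. The mean log2 ratio was negative in 63 of the 79 (79.7%), against 54.2% of all features, and the median was -0.11 against -0.012. In each of the 5 replicates the median over the factors, from -0.13 to -0.091, lay below the median of all features in that replicate, which ran from -0.025 to 0.00031. These values describe the tested factors and were not tested as a group. By family, the median was -0.20 for the 14 NKX genes, -0.13 for LHX, -0.13 for the sine oculis genes, -0.11 for PAX, -0.084 for SOX, -0.084 for GATA, -0.077 for PITX, -0.071 for TBX, -0.066 for IRX and -0.027 for DLX. All 5 tested GATA genes and all 3 PITX genes had negative means.

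Some factors with sizeable means missed the threshold. TBX2, a T-box repressor, had a mean of -0.33 (limma adjusted p = 0.109), and NKX2-1, the thyroid and lung factor, -0.33 (limma adjusted p = 0.0577). TBX1, the T-box gene of the pharyngeal arches, had -0.32 (limma adjusted p = 0.0599), and NKX2-2, a ventral neural tube and pancreas factor, -0.30 (limma adjusted p = 0.0611). The largest positive mean was 0.22, in SIX4, and 0 of the 79 factors passed the test upwards.

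**Figure D2:**
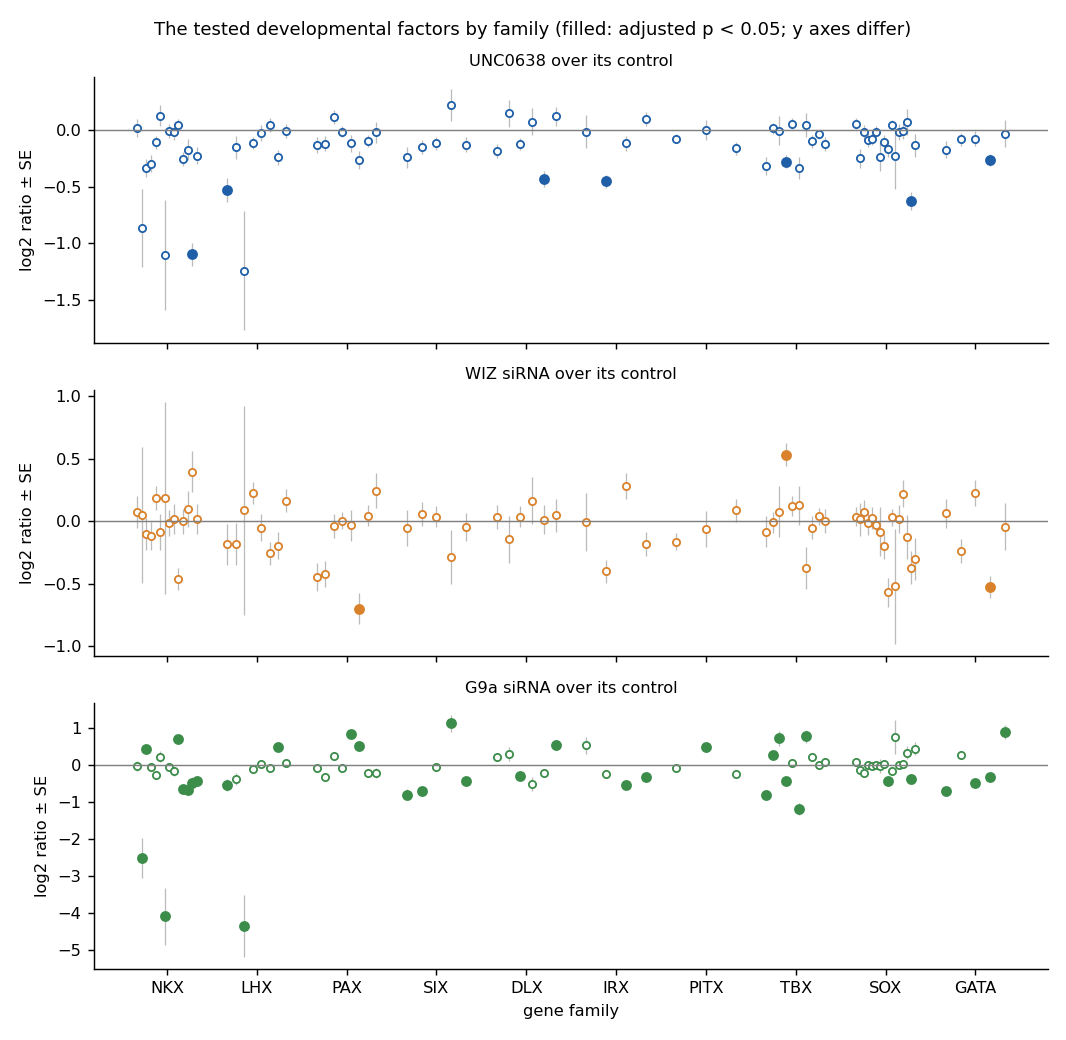
Mean log2 ratio of treated over control RNA with its SE (y axis, a different range in each panel) for the 79 tested factors, grouped by family (x axis) and ordered by symbol within it. Filled points passed limma's test at an adjusted p below 0.05: 7 with UNC0638, 3 with WIZ siRNA and 34 with G9a siRNA.

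With WIZ siRNA, 3 of the 79 tested factors passed limma's test: TBX18 rose, and GATA5 and PAX7 fell. This is 3.8% of the tested factors, against 0.615% of all features, of which 0.0795% were called higher and 0.536% lower. At an unadjusted p below 0.05, limma gave 15 of the 79, 4 higher and 11 lower. The median over the 79 was -0.0081, against 0.012 for all features, and 41 were negative and 38 positive. TBX18 and PAX7 lie just under the threshold (limma adjusted p = 0.0493 and 0.0487), and GATA5 had 0.0317. Of the 3 calls, 0 remained with the authors' own log2 ratios, where 0.104% of all features passed. Without UNC0638 replicate 1, 0 remained as well, and 0.422% of all features passed. The calls also did not hold when 1 WIZ siRNA or 1 G9a siRNA replicate was left out, which leaves 1 sample in that group. The count was 1 without UNC0638 replicate 2 or 4 and 5 without UNC0638 replicate 3.

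TBX18 changed in opposite directions with the inhibitor and with WIZ siRNA. On WIZ siRNA arrays its log2 ratio was 0.75 and 0.71 with treated RNA in Cy3 and 0.26 and 0.41 with treated RNA in Cy5. All 4 were positive, and none overlapped the 7 UNC0638 arrays, which were all negative. The mean was 0.53 (SE 0.0952, n = 2; limma adjusted p = 0.0493). The difference between the treatments, WIZ siRNA minus UNC0638, was 0.81 (SE 0.113; limma adjusted p = 0.0119).

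NKX6-2 also had opposite signs with the 2 treatments. On WIZ siRNA arrays it read 0.56 and 0.41 with treated RNA in Cy3 and 0.32 and 0.29 with treated RNA in Cy5. The mean of 0.39 did not itself pass the test (limma adjusted p = 0.574). Its difference from UNC0638 did, at 1.49 (SE 0.195; limma adjusted p = 0.00975), with the 4 WIZ siRNA arrays above and the 7 UNC0638 arrays below 0. Between these treatments, 2 of the 79 factors, 2.53%, passed the test of the difference, where 0.84% of all features did (0.0933% higher with WIZ siRNA). Treatment times differ, 48 h and 72 h, and so do the agents and controls, so the part of each in the difference cannot be told apart. Within set 1 alone, where both treatments were swapped, the difference was 1.27 for NKX6-2 (limma adjusted p = 0.000301) and 0.71 for TBX18 (limma adjusted p = 0.00276). With array set as a block in the fit of all replicates the sizes were the same, and NKX6-2 passed (limma adjusted p = 0.0415) while TBX18 did not (0.0598). Without either WIZ siRNA replicate, neither passed (adjusted p of 0.167 to 0.251), and with the authors' log2 ratios they had 0.0512 and 0.0849.

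GATA5 fell with both treatments. On WIZ siRNA arrays it read -0.90 and -0.77 with treated RNA in Cy3 and -0.26 and -0.19 with treated RNA in Cy5. The mean was -0.53 (SE 0.0856, n = 2; limma adjusted p = 0.0317). All 4 arrays were negative, and those with treated RNA in Cy3 were the lower ones.

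PAX7, a paired-box factor of muscle stem cells and neural crest, fell on average, by an amount that differed between dye orientations. It read -1.27 and -1.12 with treated RNA in Cy3 and -0.36 and -0.06 with treated RNA in Cy5. The mean was -0.70 (SE 0.125, n = 2; limma adjusted p = 0.0487). A second PAX7 probe, of 63.3% GC, read -0.07 on average, and with the mean of both probes the value was -0.39 and the adjusted p 0.117.

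Other factors with large means did not pass with WIZ siRNA. SOX3, a SOX factor of neural progenitors, had -0.57 (limma adjusted p = 0.0826), and IRX4 had -0.40 (0.119). PAX1, PAX2 and SOX8 had -0.45, -0.42 and -0.37, with adjusted p of 0.182, 0.174 and 0.409. SOX4 had -0.52 with an SE of 0.458, since its UNC0638 replicates ranged from -1.70 to 1.01 and the fit shares 1 estimate of the spread.

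Dye orientations often gave different signs. Between the orientations of a replicate, 36 and 37 of the 79 factors had opposite signs in UNC0638 replicates 1 and 2 (45.6% and 46.8%), against 56% and 56.5% of all features. With WIZ siRNA it was 48 and 46 of the 79 (60.8% and 58.2%), against 68.1% and 66.7%. The same sign on every array of a treatment was seen in 9 of the 79 factors over the 7 UNC0638 arrays, where 6.46% of all features had it, and in 23 over the 4 WIZ siRNA arrays, where 16.2% had it. Of the 7 factors called with UNC0638, LHX1 alone lacked it.

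**Figure D3:**
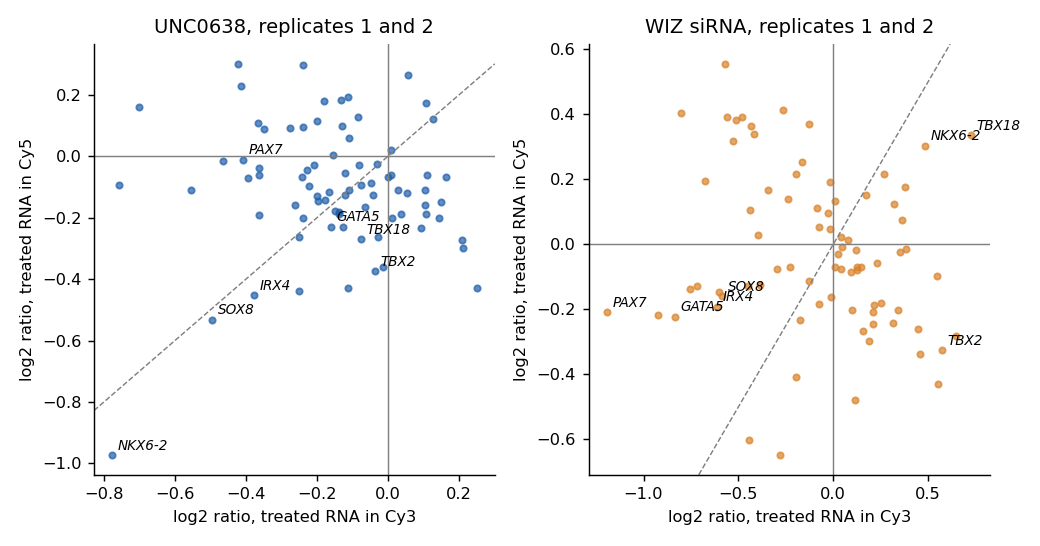
Log2 ratio with treated RNA in Cy5 (y axis) against that with treated RNA in Cy3 (x axis), each a mean over replicates 1 and 2, for the 79 tested factors with UNC0638 (left) and WIZ siRNA (right). The dashed line marks equal values. NKX6-2, SOX8 and IRX4 lie near it with UNC0638, while many factors lie in the upper left and lower right, where the orientations differ in sign.

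With G9a siRNA, 34 of the 79 tested factors passed limma's test, 12 higher and 22 lower. This is 43% of the factors, read against 33.2% of all features (15% higher and 18.2% lower): called changes were common over the whole array, and the share of higher calls among the factors, 15.2%, was close to that of all features. The share of lower calls was 27.8%. Among probes well above background on every array, 30 of 53 factors were called (10 higher and 20 lower), where 52.9% of all such features were. At an unadjusted p below 0.05, limma gave 49 of the 79, 18 higher and 31 lower. All G9a siRNA arrays had treated RNA in Cy5, so a dye effect does not cancel, and all are in set 2. With 1 of the replicates left out calls dropped among the factors and over the whole array, and the spread of the lone sample cannot be estimated. When each probe's dye effect, estimated from the swapped arrays, was subtracted, 29 of the 79 factors and 27.1% of all features passed. Of the 34, 9 lost the call there, among them DLX3, GATA2, IRX6, LHX8, NKX2-1, NKX6-2, PAX7 and TBX15.

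Among the homeobox families, 6 of the 14 NKX genes fell. NKX2-1 rose, with a mean of 0.43 (limma adjusted p = 0.0295). The lower ones were NKX2-5, NKX1-2, NKX6-1, NKX3-2, NKX6-2 and NKX6-3, the last 4 with means of -0.67, -0.66, -0.48 and -0.43. All 3 members of the NKX6 branch, which patterns the ventral neural tube and pancreas, were thus called lower. In the treated RNA, NKX6-1 and NKX6-3 were each above background on 1 of the 2 arrays. NKX6-2 read -0.46 and -0.51, passed just within the threshold (limma adjusted p = 0.0488) and lost its call with the dye effect subtracted.

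Of the 8 LHX genes, LHX8 rose (0.49) and LHX1 (-0.55) and LHX3 fell. Among the 8 PAX genes, PAX6, the eye and pancreas factor, and PAX7 rose and 0 fell. PAX6 read 0.65 and 1.04, with a mean of 0.84 (SE 0.122; limma adjusted p = 0.00296). Its other 3 probes that passed the filter read 0.49, 0.03 and -0.36 with G9a siRNA, so the value is that of the brightest probe. With the mean over its probes PAX6 had 0.25 (limma adjusted p = 0.0263). PAX7 read 0.63 and 0.41, opposite in sign to its WIZ siRNA arrays. Its second probe read -0.03 and -0.17, and with the mean of both probes PAX7 had 0.21 and did not pass (limma adjusted p = 0.0891).

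In the sine oculis family, whose products act with EYA coactivators in kidney, muscle and sense organs, SIX4 rose. It read 0.73 and 1.52, with a mean of 1.12 (SE 0.218; limma adjusted p = 0.00527), and the second replicate was the higher one. Its probe is poor in GC, 35% (chr14:61176519-61176578, minus strand, build 37.1), and after removal of each array's trend with probe GC the mean was 0.88. SIX2 fell (-0.70) and SIX5 fell (-0.43).

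In the DLX and IRX families, 1 gene was called higher and 3 lower. DLX6 rose (0.55) while its neighbour DLX5 had -0.21 and did not pass. IRX5 fell (-0.53), and IRX3, beside it on chromosome 16, had 0.53 and did not pass. DLX3 and TBX10 passed the test although neither RNA was above background on either array, so no fold is given for them. IRX6 was below background in the treated RNA. Its level there was 1.23-fold lower when the treated signal was taken as no less than that of the dimmest detected probe. This is not a firm bound. After GC correction IRX6 had a mean of 0.024, the opposite sign.

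Of the 10 T-box genes, 3 rose and 3 fell. TBX2 read -0.998 and -1.37, with a mean of -1.19 (SE 0.157; limma adjusted p = 0.00291), and TBX1 read -0.63 and -0.99, with a mean of -0.81 (limma adjusted p = 0.00309). TBX18 read -0.42 on both arrays (limma adjusted p = 0.00966), the same direction as with UNC0638 and opposite to WIZ siRNA. TBX21, the T cell factor T-bet, and TBX15, a skeletal and fat factor, had means of 0.78 and 0.72. Of the 16 SOX genes, SOX3 (-0.44) and SOX8 (-0.39) fell and 0 rose, 12.5% of the family. Of the 5 GATA genes, GATA2 (-0.71), GATA4 (-0.50) and GATA5 (-0.31) fell and GATA6, a factor of endoderm and heart, rose: it read 0.56 and 1.21, with a mean of 0.89 (SE 0.187; limma adjusted p = 0.0071).

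Of the 7 factors that fell with UNC0638, 5 were also lower with G9a siRNA: NKX6-2, SOX8, LHX1, TBX18 and GATA5. That is 71.4% of the UNC0638 calls and 14.7% of the G9a siRNA calls. Over all features, 249 of the 550 that fell with UNC0638 also fell with G9a siRNA, which is 45.3% of the former and 4.73% of the 5267 lower calls of the latter; of the factors' 22 lower calls with G9a siRNA, the 5 are 22.7%. These shares were not tested against each other. UNC0638 replicate 3, which resembled G9a siRNA, is in these calls, and NKX6-2 and SOX8 are those of the 5 that still passed with UNC0638 without it. Their calls with G9a siRNA were weak: NKX6-2 kept its call in 7 of 19 alternatives and SOX8 in 9 of 20. NKX6-2 lost it with the dye effect subtracted and SOX8 with the GC trend removed. Of the 7, IRX4 and DLX5 had means of -0.25 and -0.21 with G9a siRNA and did not pass. In the test of the difference, G9a siRNA minus UNC0638, 13 of the 79 factors passed (16.5%), 9 higher and 4 lower, against 12.7% of all features (6.08% higher and 6.58% lower). The larger of them were PAX6 (0.96, limma adjusted p = 0.0158), GATA6 (0.92, 0.0323), SIX4 (0.90, 0.0499), TBX2 (-0.85, 0.026), PAX7 (0.78, 0.0211) and NKX2-1 (0.76, 0.0227). LHX8, TBX21 and DLX1 were also higher and SIX2, GATA2 and IRX6 lower. With the mean over a gene's probes PAX6 had 0.27 (limma adjusted p = 0.0653) and PAX7 0.37 (0.044). G9a siRNA arrays all had treated RNA in Cy5 and lie in set 2, while UNC0638 spans both sets. With array set as a block 4 of the 79 passed, PAX6, PAX7 and LHX8 among them, and 2.42% of all features did. TBX2 (limma adjusted p = 0.0704), NKX2-1 (0.0563), GATA6 (0.0873) and SIX4 (0.114) did not pass there. Within set 2 alone 0 factors passed limma's test (18 at an unadjusted p below 0.05), and 0% of all features did. With the dye effect subtracted 4 factors passed, PAX6, GATA6 and TBX2 among them, where 7.73% of all features did. Without UNC0638 replicate 3, 28% of all features passed, and the count of factors rose as well. Without UNC0638 replicate 4 the share of all features was 2.82%, and without UNC0638 replicate 1 or 2 it was 3.94% and 3.36%. The count was 34 without UNC0638 replicate 3, 4 without UNC0638 replicate 4, 5 without UNC0638 replicate 1 or 2 or either WIZ siRNA replicate, and 0 without G9a siRNA replicate 2.

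LHX3, NKX2-5 and NKX1-2 had the largest ratios of the 79, and they split the UNC0638 replicates. LHX3 is a LIM-homeobox factor of pituitary and motor neurons, NKX2-5 a core heart factor, and NKX1-2 a homeobox gene of the early neural axis. LHX3 read -4.05 and -4.65 with G9a siRNA, -4.26 in UNC0638 replicate 3 and -1.44 in replicate 4, but 0.04, -0.16 and -0.38 in UNC0638 replicates 1, 2 and 5 and 0.06 and 0.11 with WIZ siRNA. NKX2-5 read -3.82 and -4.36 with G9a siRNA, then 0.08, -0.16, -3.92, -1.13 and -0.39 in UNC0638 replicates 1 to 5 and 0.17 and 0.20 with WIZ siRNA. NKX1-2 read -1.87 and -3.17 with G9a siRNA, then -0.16, -0.15, -2.52, -1.37 and -0.10 with UNC0638 and 0.04 and 0.06 with WIZ siRNA. For these 3 genes UNC0638 replicate 3 lay beside the G9a siRNA arrays and replicate 4 between them and the other replicates.

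**Figure D4:**
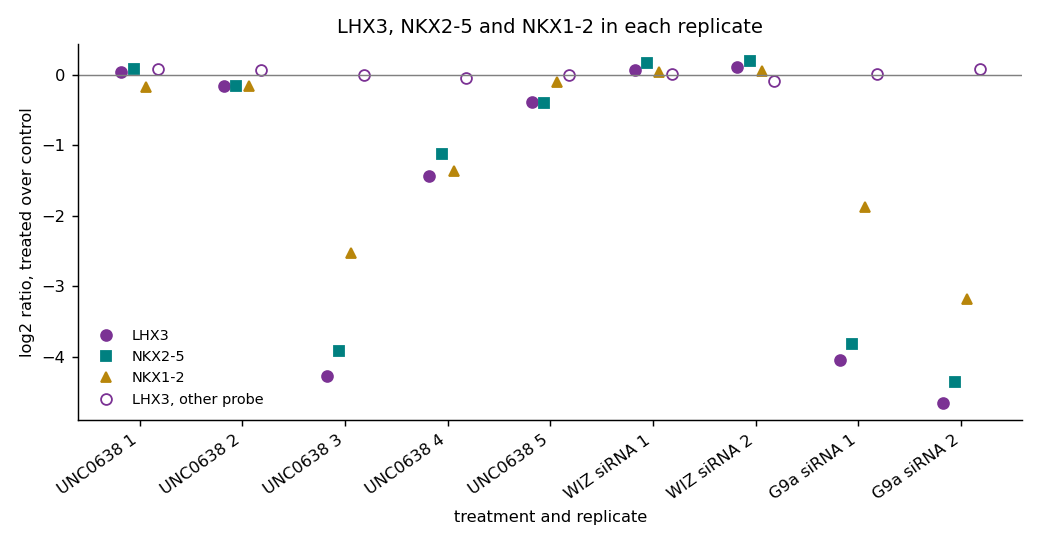
Log2 ratio of treated over control RNA (y axis) for LHX3, NKX2-5 and NKX1-2 in each of the 9 replicates (x axis), with dye-swapped arrays averaged; open circles are a second LHX3 probe. UNC0638 replicate 3 and both G9a siRNA replicates are lowest, and the second LHX3 probe stays between -0.09 and 0.09 in all 9.

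The means were -4.35 for LHX3, -4.09 for NKX2-5 and -2.52 for NKX1-2 with G9a siRNA (limma adjusted p = 0.0051, 0.00478 and 0.00768). With UNC0638 they were -1.24, -1.10 and -0.86, and did not pass (limma adjusted p = 0.226, 0.236 and 0.205). Without UNC0638 replicate 3 they were -0.48, -0.40 and -0.45. Over the 79 factors, UNC0638 replicate 3 correlated with the G9a siRNA replicates at r of 0.933 and 0.925, and over all features at 0.876 and 0.843. These values describe genes that share an array. For UNC0638 replicate 4 they were 0.603 and 0.647 over the factors and 0.5 and 0.499 over all features. Over the factors they were 0.0661 and 0.0805 for UNC0638 replicate 5, and from -0.111 to 0.165 for replicates 1 and 2. The 34 factors called with G9a siRNA had the same sign in UNC0638 replicate 3 for 30 (88.2%), close to the 92.4% over all features called with G9a siRNA, and in UNC0638 replicates 1, 2, 4 and 5 for 19 to 23. What sets replicate 3 apart, be it the RNA, the array or the culture, was not tested.

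The second LHX3 probe, of 36.7% GC, read 0.01 and 0.09 with G9a siRNA and 0.00 in UNC0638 replicate 3, where the tested one fell steeply. It was dimmer than the tested probe, and whether it was above background on these arrays is not given here. Probes of 1 gene also differed elsewhere, by less than in LHX3. Of 12 factors with more than 1 probe above the filter, 8, LHX3 among them, had probes of opposite sign with G9a siRNA. In some of the 8 both values were near 0, as in TBX5 (-0.0031 and 0.028) and LHX9 (0.063 and -0.13). The files give sequence for both probes in 5 of these 12, and their GC content can be set beside the ratios. Shown here, for what a GC-rich probe of these genes looks like, are those of TBX3 (chr12:115109654-115109713, minus strand), PAX3 (chr2:223158961-223159020, minus strand) and NKX1-2 (chr10:126136114-126136173, minus strand), coordinates in build 37.1 as in the files, with G and C in capitals.
TBX3: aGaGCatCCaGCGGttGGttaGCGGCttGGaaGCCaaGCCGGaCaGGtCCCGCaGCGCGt
PAX3: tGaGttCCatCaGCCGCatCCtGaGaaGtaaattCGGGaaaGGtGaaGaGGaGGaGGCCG
NKX1-2: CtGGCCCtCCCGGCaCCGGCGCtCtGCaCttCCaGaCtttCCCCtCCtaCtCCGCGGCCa
The TBX3 probe is 65% GC and had a mean of -0.92 with G9a siRNA and -0.48 in UNC0638 replicate 3, where a TBX3 probe of 35% GC read 0.23 and 0.04. The PAX3 probe is 53.3% GC and read -0.34 and -0.40, where a PAX3 probe of 40% GC read 0.24 and 0.09. The NKX1-2 probe is 70% GC, and no second probe of this gene is on the array.

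In all 5 genes with sequence for both probes (PAX3, PAX9, TBX1, TBX3 and TBX5), the GC-richer probe had the lower mean with G9a siRNA. The same held for 4 of the 5 in UNC0638 replicate 3 and for 1 of the 5 with WIZ siRNA. The TBX1 probes both read below 0, -0.81 at 51.7% GC and -0.56 at 43.3% GC. The TBX5 probes read -0.0031 and 0.028, and the tested one was below background on both G9a siRNA arrays. When the trend of the ratio with probe GC was removed within each array, 19 of the 22 factors called with G9a siRNA whose probe has a sequence kept their call, and IRX6, NKX2-1 and SOX8 lost it. NKX1-2 kept a mean of -1.90 (limma adjusted p = 0.00817), and TBX2 had -0.84. LHX3 and NKX2-5 have no probe sequence in the files, so the correction could not be applied to them.

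**Figure D5:**
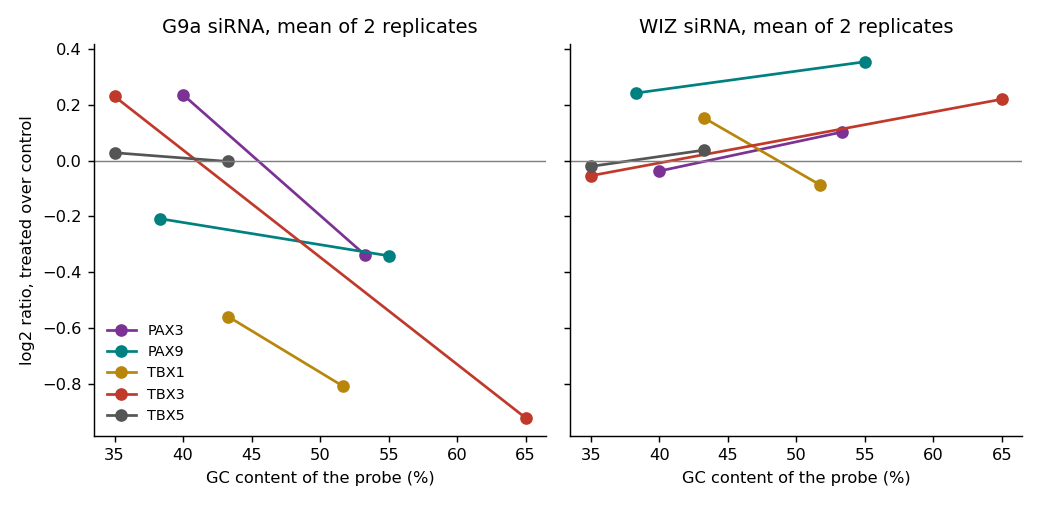
Mean log2 ratio of treated over control RNA over 2 replicates (y axis) against the GC content of the probe (x axis) for the 5 factors with sequence for both of their probes; a line joins probes of 1 gene. With G9a siRNA (left) all 5 lines slope down, from 0.23 to -0.92 for TBX3, and with WIZ siRNA (right) 1 of the 5 does.

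Genes that act with these factors were counted in the same fit, from lists chosen with earlier results of these data known. Of 32 partners (cofactors such as EYA, TLE, LDB, LMO, MEIS and PBX proteins), 0 rose and 3 fell with UNC0638: CITED1, a coactivator of the early kidney (-0.54), TLE2, a Groucho corepressor (-0.42), and PBX4 (-0.40). This is 9.38% of them, against 3.65% of all features. With WIZ siRNA 0 passed limma's test (4 at an unadjusted p below 0.05), where 0.615% of all features did, and with G9a siRNA 7 rose and 9 fell (50%, against 33.2%). The partners' median with UNC0638 was -0.019, close to the -0.012 of all features. Of 30 polycomb genes, 0 passed limma's test with UNC0638 and 0 with WIZ siRNA (5 and 4 at an unadjusted p below 0.05), against 3.65% and 0.615% of all features. With G9a siRNA 10 rose and 9 fell (63.3%, against 33.2%), among them the PRC2 subunit SUZ12 (1.03) and the PRC1 subunits BMI1 (1.09) and RING1 (-0.90). Of all features well above background on every array, 52.9% were called with G9a siRNA. The partners and polycomb genes were not counted at that filter.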

How the data were processed

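Total RNA on 13 Agilent Human 8x60K 2-colour arrays was analysed from the deposited array files. Mean spot and median background intensities per channel are the scanner's, deposited by the authors uncorrected. Each file has, beside them, the authors' log2 ratio of background-subtracted, normalized channels, per the file headers. A series table has the authors' deposited log10 ratios, whose centring is unstated. The table ran control over treated on 8 arrays and treated over control on 5, by comparison with each array's own ratio (r from -0.877 to -0.918 and from 0.925 to 0.971), so it was turned accordingly. The medians of its columns were -0.01 to 0.00818.

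In R 4.3.3 with limma 3.58.1, background was corrected with normexp (offset 50) over 62976 spots and loess was run per array, with 4259 control spots at weight 0. Spots of a probe were averaged, ratios turned to treated over control, and swapped arrays averaged, giving 9 replicates. A probe was kept if its signal exceeded background by 2.6 background SDs on 50% or more of the arrays in some RNA group. The brightest probe stood for a gene. One fit (lmFit, eBayes) had a mean per treatment; p-values were Benjamini-Hochberg adjusted over 28931 features and called below 0.05. In simulated data, 76% of changes of 0.5 (log2) were recovered for UNC0638, 36% for WIZ siRNA and 36% for G9a siRNA.

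The factors and gene lists were chosen with earlier results of these data known. Factors named were those called in any comparison, the 8 largest means per treatment and the largest per family and treatment; some genes are not reported here. Gene symbols are those of the array or of RefSeq. Alternatives were the authors' ratios, no background correction, other filters, all probes of a gene, dye and GC corrections, replicate number and array set as blocks, separate fits, a threshold of 0.01 and leaving out each replicate. The slide was not given, so array set, from background, stood in its place. The GC correction over the whole set is void, since 54 of the 79 tested factors (68.4%) have a probe sequence, and is given for single genes alone. Deviations of same-numbered replicates from their treatment means had r of -0.29 to 0.37. With 2 replicates the deviations are exact opposites of each other, so this check cannot exclude pairing. The numbers were not taken to pair samples.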

Additional observations from a re-analysis of the deposited data

Results flagged for a closer look

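In GATA5 and SOX8, 1 of the 5 UNC0638 replicates stood apart from the other 4, with a gap to its nearest neighbour of over 0.710 of the range, the 95% critical value of Dixon's test for 5 samples; chance marks about 1 group in 20. For GATA5 replicate 2 read -0.05, where the others ran from -0.34 to -0.28, and the gap was 0.804 of the range. For SOX8 replicate 5 read -1.05, where the others ran from -0.58 to -0.44, and the gap was 0.774. The causes were not tested.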

How the results depend on the processing

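Counts of called factors moved with the processing, and the cause was not tested except where fewer samples or a stricter threshold is the setting. The share of all features called moved too. With WIZ siRNA it was 0.615% in the fit reported and 23.7% from its own replicates. With UNC0638 it was 3.65%, and 0.397% in array set 2 alone. For G9a siRNA minus UNC0638 it was 12.7%, 28% without UNC0638 replicate 3 and 0% in array set 2 alone. With UNC0638 (7 in the fit reported) the count was 4 with the authors' log2 ratios, 11 with the dye effect subtracted, 3 from its own replicates, 1 in array set 2 alone and 3 at an adjusted p of 0.01; leaving out 1 replicate gave 3 to 7 (4 without UNC0638 replicate 1 or either WIZ siRNA replicate, 3 without UNC0638 replicate 4). With WIZ siRNA (3) it was 0 with the authors' log2 ratios, 1 with their log10 ratios, 1 without background correction, 1 with the mean of a gene's probes, 1 with the dye effect subtracted, 32 from its own replicates and 0 at 0.01; leaving out 1 replicate gave 0 to 5 (1 without UNC0638 replicate 2 or 4, 5 without replicate 3). With G9a siRNA (34) it was 19 at 0.01, and 0 to 42 with 1 replicate left out, where the lone sample is assumed to vary like the other groups. For WIZ siRNA minus UNC0638 (2) it was 0 with the authors' log2 ratios, 1 with their log10 ratios, 1 with array set as a block, 7 in array set 1 alone and 1 at 0.01; leaving out 1 replicate gave 0 to 2. For G9a siRNA minus UNC0638 (13) it was 7 and 6 with the authors' log2 and log10 ratios, 20 with probes above background on every array, 4 with the dye effect subtracted, 5 from own replicates, 4 with array set as a block, 0 in array set 2 alone and 0 at 0.01; leaving out 1 replicate gave 0 to 34 (5 without UNC0638 replicate 1 or 2 or either WIZ siRNA replicate). With the replicate number as a random block the 5 counts were 7, 2, 36, 2 and 19; of single calls named with WIZ siRNA, TBX18 had an adjusted p of 0.0504 there. IRX6 with G9a siRNA turned from -0.32 to 0.024 when the GC trend was removed. Signal over background limits the dim factors, and 26 of the 79 were not above it on every array.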

Other observations

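Developmental factors of other families, whose symbols the choice by name does not take in, were measured in the same fit. Their list was also chosen with earlier results of these data known. Of 84 such genes 72 were tested; with UNC0638 0 rose and 8 fell in limma's test (11.1%, against 3.65% of all features), with 4 higher and 21 lower at an unadjusted p below 0.05. The largest were TLX3, a homeobox factor of sensory neurons (-0.61, limma adjusted p = 0.00488), BARX1, of stomach and tooth (-0.59, 0.00233), MNX1, of motor neurons and pancreas (-0.45, 0.0346), FOXF1, of visceral mesoderm (-0.41, 0.0025), HAND2, of heart and limb (-0.38, 0.00421), and GBX2, of the hindbrain boundary (-0.35, 0.0347). With WIZ siRNA 0 passed limma's test, and 7 had an unadjusted p below 0.05. In the difference WIZ siRNA minus UNC0638, BARX1 (0.74) and HAND2 (0.72) passed the test, in the same direction as NKX6-2 and TBX18. With G9a siRNA 11 rose and 21 fell, with VSX1 (-4.72), SALL3 (-2.94) and EN2 (-2.17) at the low end. This is 44.4%, against 33.2% of all features and 52.9% of those well above background on every array.

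Among 34 genes of morphogen signals known to act upstream or downstream of such factors, UNC0638 gave 1 higher and 5 lower. This is 17.6%, against 3.65% of all features. The list was chosen with earlier results of these data known, and the shares were not tested against each other. ALDH1A1, an enzyme that makes retinoic acid, rose (1.20, limma adjusted p = 4.56e-05). WNT3A (-0.87) and WNT11 (-0.59), which are Wnt ligands, fell, as did CYP26A1 (-0.29), which breaks down retinoic acid, RET (-0.27), the receptor for GDNF in the kidney bud, and RARG (-0.25), a retinoic acid receptor. With WIZ siRNA WNT3A (-0.77, limma adjusted p = 0.0213) and IHH (-0.58, 0.0227), a hedgehog ligand, fell (5.88%, against 0.615%). With G9a siRNA 3 rose and 9 fell (35.3%, close to the 33.2% of all features), among them BMP2 (1.04) upwards and the hedgehog receptor component SMO (-0.68) downwards.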
